A study of Mus musculus with 6 samples.

Results

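The genes described here are 10 cell cycle genes of interphase: the cyclin genes Ccnd1, Ccnd2, Ccnd3, Ccne1, Ccne2 and Ccna2, the kinase genes Cdk4 and Cdk2, and the inhibitor genes Cdkn1a (p21) and Cdkn1b (p27). Members were all non-control probes carrying one of these gene names, which gave 17 probes on 44 spots, out of 27745 gene names, 41174 probes and 43379 spots on the array. Of the 10 genes, 5 had 1 probe and 5 had more than 1. RNA of the mouse strain B6C3 F1 was measured on 6 single-colour Agilent arrays, 1 sample per array. Climacteric blastocysts and young blastocysts had 2 arrays each, and climacteric ooplasts and young ooplasts had 1 array each. A blastocyst is a hollow preimplantation embryo with an inner cell mass and an outer trophectoderm, and an ooplast is an oocyte from which the chromosomes have been removed. All 4 groups share the strain, and the labels give age only as climacteric or young. How the blastocysts were made, and how many embryos or ooplasts went into an array, is not given in the sources used here.

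Cyclins switch on cyclin-dependent kinases (CDKs). In most somatic cells D cyclins with CDK4 or CDK6 start the phosphorylation of the retinoblastoma protein in G1, cyclin E with CDK2 drives entry into S phase, and cyclin A2 with CDK2 or CDK1 carries S phase and the approach to mitosis. p21 and p27 bind these complexes and restrain them, and p21 is a well known transcriptional target of p53. The full-grown oocyte stores mRNA and is arrested in meiosis, while the cells of a blastocyst transcribe their own genome and divide by mitosis.

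The level of a probe is the log2 of its processed signal minus the 75th percentile of its own array, so that 0 is the 75th percentile and each unit is a factor of 2. It is a level relative to the other RNAs on that array, and fewer cells, less RNA per cell and a changed amount of other RNA cannot be told apart in it. That 75th percentile was 1064 and 852 signal units in climacteric blastocysts, 721 and 1111 in young blastocysts, 238 in climacteric ooplasts and 235 in young ooplasts, and the share of spots well above background was 49.9% to 57.3% in blastocysts and 42.2% to 42.4% in ooplasts. Oocyte markers were low in blastocysts (6 or 7 of 11 well above background, summed signal 3.63 to 4.79 times the 75th percentile) and high in ooplasts (11 of 11 in climacteric and 10 of 11 in young, summed signal 5549 and 5950). Markers of the blastocyst ran the other way, with 11 of 11 well above background and summed signals of 1261 to 1580 in blastocysts, against 5 of 11 (12.8) in climacteric and 6 of 11 (13.3) in young ooplasts. Cumulus and granulosa markers summed to 45.4 to 53.5 in blastocysts, to 122 in climacteric ooplasts and to 475 in young ooplasts, with 9 to 11 of 18 above background throughout. Fshr, Lhcgr, Has2, Star, Pgr, Cyp11a1 and Fst of that list were not well above background in either ooplast array, while the aromatase gene Cyp19a1 stood at 6.22 in climacteric and 6.30 in young ooplasts. The inhibin gene Inha, which had the largest share of the young ooplast sum, stood at 2.80 in climacteric and 8.44 in young ooplasts. The part of these other cells in the values below was not tested.

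Across stages, blastocysts had more Cdkn1a, Cdk4 and Ccne1 and less Ccne2 and Cdkn1b than ooplasts, Cdkn1b at its brightest probe alone. Of the 10 genes, 8 could be tested, since their probe was well above background on all ooplast or all blastocyst arrays, and 5 of these 8 passed, 3 higher and 2 lower in blastocysts. Cdk4, 1 of the 3, entered only through the blastocysts and has a bound, not a fold. Over all 15596 genes tested 74.4% passed, 35.5% higher and 38.9% lower in blastocysts, so 62.5% of the tested members is no more than the background share and says nothing particular about these genes. Probe by probe, 13 of the 17 could be tested, of which 4 were higher and 4 lower, where 73.7% of all 20982 tested probes passed, 35.6% higher and 38.2% lower. Tests are from limma over all 6 arrays with age as a term, with Benjamini-Hochberg adjustment and a threshold of 0.05. Ccnd2, Ccnd3 and Ccna2 did not pass, and Ccnd1 and Cdk2 could not be tested.

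**Figure D1:**
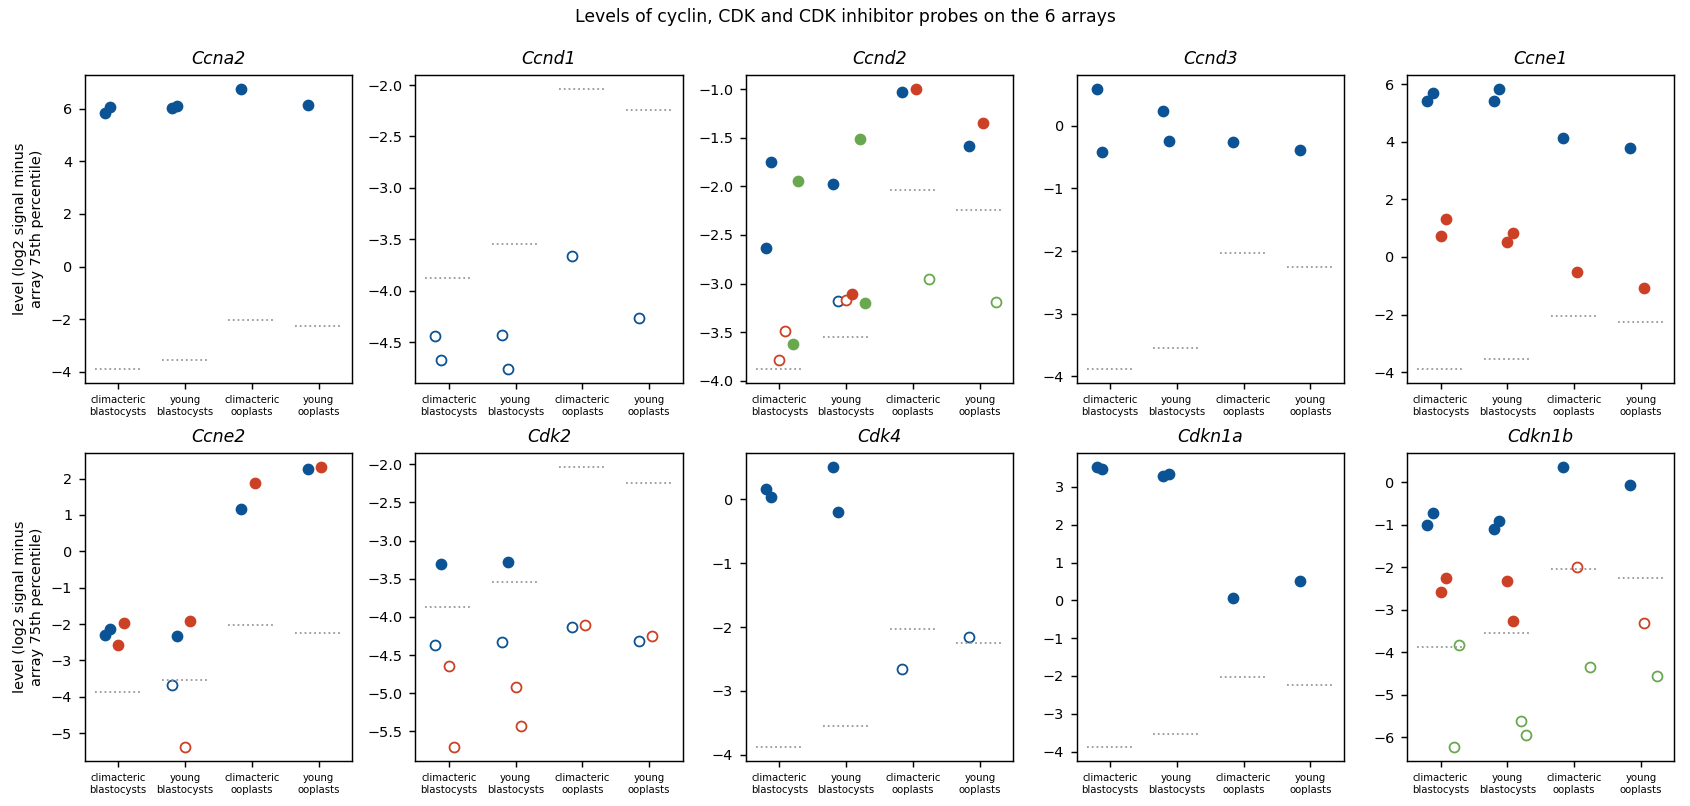
Levels of every probe of the 10 genes on each of the 6 arrays, with the log2 level on the vertical axis and the 4 groups along the horizontal axis. Each colour is 1 probe of the gene, each point 1 array, filled points are well above background and open points are not, and the dotted line is the mean over the group's arrays of the lowest level among probes well above background. Cdkn1a, Cdk4 and Ccne1 lie higher in every blastocyst array than in both ooplast arrays, and both Ccne2 probes lie lower.

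Among the D cyclins, which link growth signals to CDK4 and CDK6, Ccnd3 was the only gene with a probe well above background on all 6 arrays. The Ccnd3 probe (chromosome 17, from 47062509 to 47062568, plus strand; this and all probe positions are on mm8, the build of the files) stood at 0.59 and -0.43 in climacteric blastocysts, 0.23 and -0.25 in young blastocysts, -0.25 in climacteric ooplasts and -0.39 in young ooplasts. The stages overlapped. The difference between blastocysts and ooplasts was 0.36 ± 0.36 (SE) on the log2 scale, with a 95% interval of -0.51 to 1.23 and adjusted p = 0.391 (limma), so the arrays leave room for a rise of over 2-fold.

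The Ccnd1 probe (chromosome 7, from 144739658 to 144739717, minus strand) was printed in 10 spots, and none of the 8 to 10 used on an array was well above background. On replicate 2 of the climacteric and of the young blastocysts, 1 printed spot each was well above background, with signals of 114 and 197, and was left out because the scanner software marked it as an outlier. Its mean level was between -4.76 and -4.43 in blastocysts and -3.66 and -4.26 in climacteric and young ooplasts. Every blastocyst level lay below both ooplast levels, but these are background values and no direction is read from them. Averaged over the spots used, Ccnd1 was not well above background in either stage.

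Ccnd2 had 3 probes that lie at different places along the gene and differed in where they were measured. The brightest (chromosome 6, from 127104788 to 127104847, minus strand) stood at -2.63 and -1.75 in climacteric blastocysts, -1.98 and -3.18 in young blastocysts, -1.03 in climacteric ooplasts and -1.58 in young ooplasts. It was above background on every array but 1 young blastocyst array, and each blastocyst level lay below both ooplast levels. The difference was -1.08 ± 0.43 (SE), with a 95% interval of -2.13 to -0.03, and did not pass after adjustment (adjusted p = 0.0602, limma). A second probe (127095295 to 127095354) was well above background in both ooplasts and in 1 of 4 blastocyst arrays. It fell by 2.21 on the log2 scale (adjusted p = 0.000753, limma over all probes), a size that rests in part on blastocyst values at background. Another (127114297 to 127114356) was above background in the 4 blastocyst arrays and in neither ooplast array. That probe spread from -3.62 to -1.52 in blastocysts, and the 2 ooplast values lay inside that range. The first 2 probes entered the test through the ooplasts alone, with 3 and 1 of 4 blastocyst arrays above background. Their falls are therefore measured partly against background. The remaining probe entered through the blastocysts alone, and its fitted difference was 0.50, against ooplast signals at background. Together the 3 probes give Ccnd2 no settled direction.

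The E cyclins, partners of CDK2, moved in opposite directions. Ccne1 stood at 5.43 and 5.70 in climacteric blastocysts, 5.41 and 5.85 in young blastocysts, 4.12 in climacteric ooplasts and 3.77 in young ooplasts. Every blastocyst array was above both ooplast arrays. Ccne1 was 3.14-fold higher in blastocysts (log2 1.65 ± 0.28, SE; adjusted p = 0.00192, limma), and a second, dimmer Ccne1 probe was 3.11-fold higher (log2 1.64 ± 0.29, SE). The files place both probes at chromosome 7, from 37806678 to 37806701, minus strand, and both were above background on all 6 arrays.

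Ccne2 ran the other way by a larger factor. Its brighter probe (chromosome 4, from 11130171 to 11130230, plus strand) stood at -2.31 and -2.12 in climacteric blastocysts, -3.68 and -2.32 in young blastocysts, 1.16 in climacteric ooplasts and 2.27 in young ooplasts. It was well above background on all arrays except replicate 1 of the young blastocysts, the lowest of the 6. The blastocyst mean was -2.61 ± 0.72 (SD, n = 4) and the ooplast mean 1.72 ± 0.78 (SD, n = 2). Ccne2 thus fell by 4.33 ± 0.56 (SE) on the log2 scale, a 20.1-fold difference (adjusted p = 0.000574, limma). This size rests in part on the background value of replicate 1 of the young blastocysts. The second Ccne2 probe (11130287 to 11130346) also passed (fitted difference -5.05 ± 0.96, SE). It too was not above background on replicate 1 of the young blastocysts, at -5.38, so the size of its fall rests in part on a background value. At the brighter probe the difference was -3.38 without the young ooplast array, -5.27 without the climacteric one and -3.26 with normexp background correction, and it passed the test in each.

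Ccna2, the A-type cyclin of S phase, had 1 probe (chromosome 3, from 36756605 to 36756664, minus strand) and was bright on every array. Its level was 5.82 and 6.08 in climacteric blastocysts, 6.04 and 6.10 in young blastocysts, 6.76 in climacteric ooplasts and 6.14 in young ooplasts. The blastocyst arrays lay below both ooplast arrays, but by little. The difference was -0.44 ± 0.28 (SE), with a 95% interval of -1.12 to 0.24 and adjusted p = 0.198 (limma). Under the authors' deposited values it was 0.02, so Ccna2 has no settled direction.

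The kinase genes stood apart in how well they were measured. Cdk4, the partner of the D cyclins, had 1 probe (chromosome 10, from 126467860 to 126467919, plus strand), which read 0.16 and 0.03 in climacteric blastocysts, 0.51 and -0.21 in young blastocysts, -2.66 in climacteric ooplasts and -2.15 in young ooplasts. All 4 blastocyst arrays were well above background and neither ooplast array was. The mean level was 0.12 ± 0.30 (SD, n = 4) in blastocysts, and the measured ooplast mean was -2.41 ± 0.36 (SD, n = 2), with adjusted p = 0.000432 for the difference (limma). The fitted difference, 2.53 on the log2 scale, rests on ooplast signals at background, so a bound is given instead. Cdk4 was at least 4.65-fold higher in blastocysts (log2 2.22) with the scaling used here. Here "at least" sets the blastocyst mean against a reference on each ooplast array. That reference is the lowest signal of a probe well above background, or the probe's own signal if that is higher. With normexp background correction the fitted difference was 1.30, smaller than this bound, and still passed. The "at least" values of other genes follow the same rule and hold for the main processing only.

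Cdk2, the partner of the E and A cyclins, had 2 probes. The brighter (chromosome 10, from 128106710 to 128106769, minus strand) read -4.36 and -3.30 in climacteric blastocysts, -4.33 and -3.29 in young blastocysts, -4.14 in climacteric ooplasts and -4.32 in young ooplasts. It was well above background on the 2 blastocyst arrays of the second slide and on none of the first slide, which held replicate 1 of both blastocyst groups and both ooplasts. The other probe (128101107 to 128101166) was above background on no array. Cdk2 was therefore not tested.

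The inhibitor genes also moved in opposite directions, though the fall of Cdkn1b was seen at its brightest probe alone. Cdkn1a, which encodes p21, stood at 3.53 and 3.47 in climacteric blastocysts, 3.28 and 3.35 in young blastocysts, 0.06 in climacteric ooplasts and 0.52 in young ooplasts. Its probe (chromosome 17, from 28828096 to 28828155, plus strand) was above background on all 6 arrays and was read in 10 spots per array, of which 9 or 10 were used. Within an array the SD over these spots was 0.05 to 0.15, so the spots place each array closely while the error between samples is that of 4 and 2 arrays. The mean of Cdkn1a was 3.41 ± 0.11 (SD, n = 4) over blastocyst arrays, against 0.29 ± 0.32 (SD, n = 2) over ooplast arrays, and Cdkn1a was 8.70-fold higher in blastocysts (log2 3.12 ± 0.26, SE; adjusted p = 9.2e-05, limma).

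**Figure D2:**
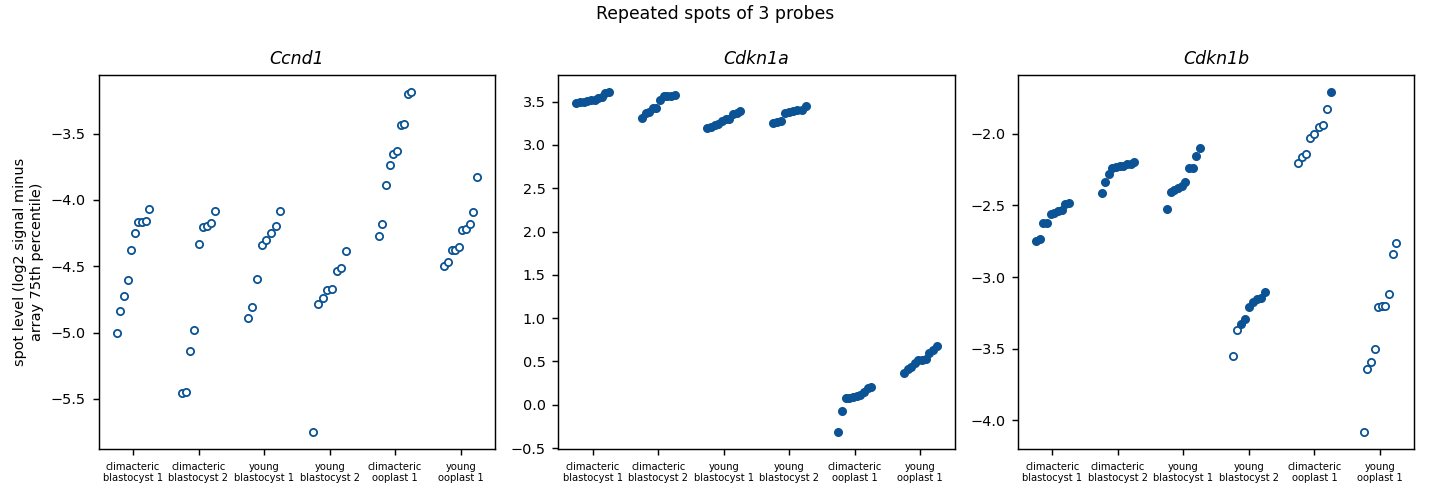
Levels of the individual spots of the 3 member probes printed in 10 copies, for Ccnd1, Cdkn1a and Cdkn1b, by array, with the log2 level on the vertical axis. Spots marked as outliers are left out, and filled points are spots well above background. Cdkn1a spots lie between 3.20 and 3.62 in blastocysts and between -0.31 and 0.67 in ooplasts, all Ccnd1 spots drawn are open, and the Cdkn1b probe has 1 filled spot over both ooplast arrays.

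Cdkn1b, which encodes p27, had 3 probes. The brightest (chromosome 6, from 134890890 to 134890949, plus strand) stood at -1.01 and -0.72 in climacteric blastocysts, -1.11 and -0.91 in young blastocysts, 0.36 in climacteric ooplasts and -0.07 in young ooplasts. The 6 values were above background and the stages did not overlap. Cdkn1b fell by 1.08 ± 0.25 (SE) on the log2 scale, 2.11-fold lower in blastocysts (adjusted p = 0.00836, limma). A second probe (134886778 to 134886836), printed in 10 spots, was well above background in the blastocyst arrays and in neither ooplast array. It gave levels of -3.26 to -2.26 in blastocysts and -2.00 and -3.31 in climacteric and young ooplasts, and its fitted difference, 0.05 ± 0.39 (SE), rests on ooplast signals at background. The remaining probe (134889281 to 134889340) was above background nowhere. With the mean of all probes, Cdkn1b's difference was -0.66 and no longer passed (adjusted p = 0.121, limma), and without the climacteric ooplast array it was -0.94 (adjusted p = 0.0712).

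**Figure D3:**
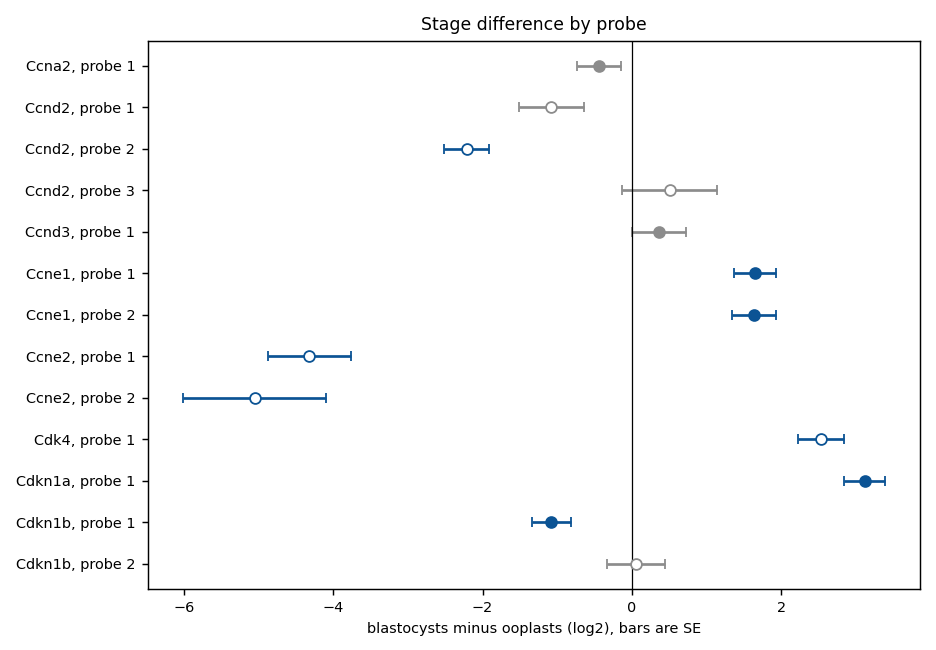
Difference between blastocysts and ooplasts for the 13 member probes that could be tested, on the log2 scale, with bars giving the SE. Blue marks probes past the threshold in the fit over all probes and grey the others, and filled points are above background on all 6 arrays. Both Ccne1 probes lie near 1.6 and both Ccne2 probes below -4, while Ccnd2 and Cdkn1b each have probes past the threshold and probes that are not.

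The slide did not change these calls, though Cdk4 was at background in both ooplast arrays throughout. Within the first slide, which holds 1 blastocyst array of each age and both ooplast arrays, the difference between blastocysts and ooplasts was 3.12 for Cdkn1a, 2.74 for Cdk4, 1.47 for Ccne1, -4.71 for Ccne2 and -1.20 for Cdkn1b, and the same 5 genes passed. Climacteric arrays alone gave 3.44, 2.76, 1.44, -3.38 and -1.23 for these genes in that order, and young arrays alone gave 2.80, 2.30, 1.86, -5.27 and -0.94. In young arrays alone Cdkn1b did not pass (adjusted p = 0.102).

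The promoters of the genes that rose were read from RefSeq (GRCm38.p6), which holds 8 starts for 6 of the members. Those of Cdk4 and Cdkn1a are shown because these genes had the larger rises and their windows held a motif that was searched for. Capitals mark the motif: CACGTG, the E-box, in Cdk4, and a p53 element in Cdkn1a. That element is 2 half-sites of 10 letters each, with no spacer and at most 1 mismatch over both together.

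Cdk4 chr10:127063285-127063534 (GRCm38.p6, plus strand): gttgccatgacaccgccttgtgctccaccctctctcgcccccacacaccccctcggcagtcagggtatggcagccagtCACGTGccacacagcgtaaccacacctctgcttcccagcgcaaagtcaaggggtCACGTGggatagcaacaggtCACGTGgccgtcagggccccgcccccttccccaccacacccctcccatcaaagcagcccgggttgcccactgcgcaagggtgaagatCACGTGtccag
Cdkn1a chr17:29090729-29090978 (GRCm38.p6, plus strand): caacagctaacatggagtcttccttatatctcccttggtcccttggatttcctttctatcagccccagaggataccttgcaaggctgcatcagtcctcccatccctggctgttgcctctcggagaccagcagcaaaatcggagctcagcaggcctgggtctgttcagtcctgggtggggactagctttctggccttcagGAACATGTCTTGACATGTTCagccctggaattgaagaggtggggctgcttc

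The Cdk4 window of 250 bases held 4 copies of CACGTG, whose first bases lie 172, 118, 98 and 11 bases before the start. CACGTG, which reads the same on both strands, was in 6.02% of 32851 promoters, and 20 of them (0.0609%) held 3 or more. The p53 element of Cdkn1a begins 51 bases before the upstream one of its 2 listed starts. Such an element was in 25 of 32851 promoters (0.0761%). The window of the other Cdkn1a start, at chr17:29093519-29093768, held none, and which start is used in these samples was not tested. The windows of Ccne1, the remaining gene that rose, and of Ccnd3, Cdk2 and Cdkn1b held neither CACGTG nor the p53 element. The letters TTTCGCGC or TTTGGCGC, searched on both strands as E2F letters, were in no member window and in 215 promoters (0.655%). These are descriptions of letters, not of binding, and no start is listed for Ccna2, Ccnd1, Ccnd2 and Ccne2.

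In blastocysts no age difference in these genes passed the test. None of the 8 tested members was called, and none had an unadjusted p under 0.05. Over all genes the adjusted test called 0% of 15955 and an unadjusted p under 0.05 was reached by 5.36%. The Cdkn1a difference between climacteric and young blastocysts was 0.18 ± 0.27 (SE), with a 95% interval of -0.52 to 0.88 (unadjusted p = 0.536, adjusted p = 0.9999, limma). Climacteric exceeded young within both slides, by 0.25 on the first and 0.11 on the second. Cdkn1b was also higher on both slides, by 0.10 and 0.19, and its interval was -0.60 to 0.89. Ccne2 had the widest shift, 0.79 ± 0.50 (SE) with an interval of -0.50 to 2.07, made of 1.37 on the first slide, where the young array was at background, and 0.20 on the second. Ccna2 differed by -0.12 (interval -0.84 to 0.60), Ccne1 by -0.06 (-0.87 to 0.74) and Cdk4 by -0.05 (-0.95 to 0.85). Ccnd2 differed by 0.39 (-0.97 to 1.76) and Ccnd3 by 0.09 (-1.03 to 1.22). The sign changed between the first and the second slide for Ccnd2 (-0.65 and 1.44), Ccnd3 (0.36 and -0.18), Cdk4 (-0.34 and 0.24) and Ccne1 (0.02 and -0.15). The intervals of Ccne2, Ccnd2 and Ccnd3 allow changes of 2-fold, and those of the other genes allow smaller ones. The 2 arrays per age therefore do not show that the ages were alike.

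In ooplasts there was 1 array per age and no test. Of 7 members measured on both, 5 were higher and 2 lower in climacteric ooplasts, and 1, Ccne2, was at least 2-fold apart. Of all 12088 genes measured 17.3% were so, 7.39% higher and 9.88% lower in climacteric ooplasts. Ccne2 was lower in climacteric ooplasts by 1.10 on the log2 scale at the brighter probe and stood at 1.87 in climacteric against 2.32 in young ooplasts at the other. With scaling on probes detected on all arrays it was -0.96, under 2-fold. Cdkn1a differed by -0.46, Ccna2 by 0.63, Ccnd2 by 0.56, Cdkn1b by 0.44, Ccne1 by 0.36 and Ccnd3 by 0.14, while all genes had a median of 0.15. Leucocyte markers summed to 59.1 in climacteric and 14.5 in young ooplasts, with 13 and 7 of 18 above background, and their part was not tested. The leucocyte gene Ptprc (CD45) was not above background in either ooplast array, while the lysozyme gene Lyz2 stood at 3.94 in climacteric ooplasts and at background, -4.48, in young ooplasts. In blastocysts that sum was 44.5 in replicate 1 of the climacteric group and 6.06 to 8.0 in the other 3 arrays.

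Whether the age difference itself differed between stages was tested as an interaction. No member passed, and none had an unadjusted p under 0.05, where the adjusted test called 0.853% and the unadjusted threshold 7.80% of 15596 genes. Ccne2 came nearest, with a climacteric minus young difference of 0.79 in blastocysts and -1.10 in ooplasts, and an interaction of 1.89 ± 0.87 (SE), unadjusted p = 0.0792 and adjusted p = 0.724 (limma). The residual spread of this test comes from the blastocyst replicates alone.

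**Figure D4:**
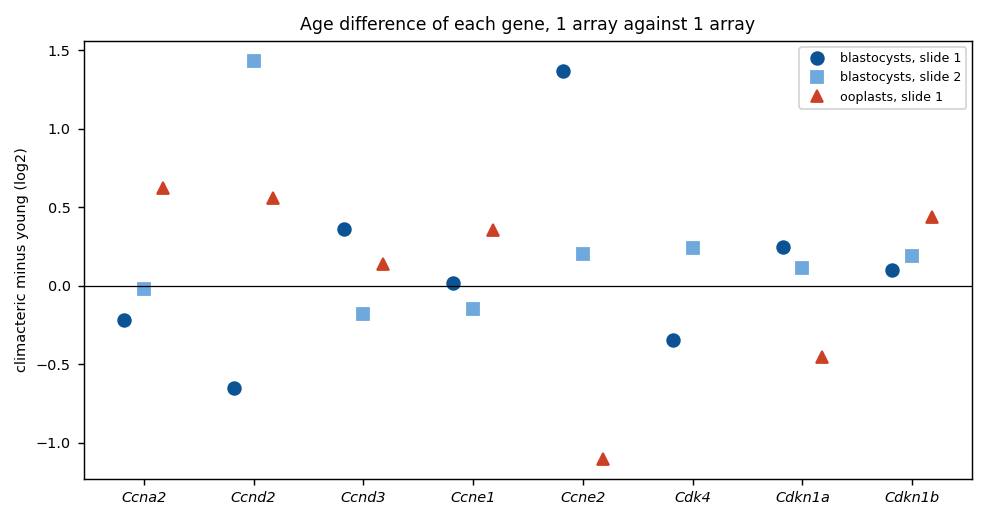
Climacteric minus young difference of each member on the log2 scale, for blastocysts on the first slide, blastocysts on the second slide and ooplasts, each point being 1 array minus 1 array. Ccnd2 runs from -0.65 to 1.44 between the blastocyst slides, and Ccne2 is 1.37 and 0.20 in blastocysts and -1.10 in ooplasts, while Cdkn1a is 0.25 and 0.11 in blastocysts and -0.46 in ooplasts.

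The neighbouring genes of the pathway did not move one way. Their counts stand against 35.5% higher, 38.9% lower and 74.4% in all over the 15596 genes tested, and nothing is read from a list whose share lies near these. Of 21 tested other cyclins and CDKs, 7 were higher and 7 lower in blastocysts and 7 did not pass, with a median of 0.05, where the median over all genes was -0.25. Ccnh, the cyclin of the CDK-activating kinase, rose by 4.58, although its other probes gave -0.34 to 1.74, and Ccnc, partner of CDK8 in the Mediator complex, rose by 4.02. Ccng2 (-3.44) and Cdk8 (-2.13) fell. Cdk1, the mitotic kinase, carried as Cdc2a in the files, was not above background in ooplasts and at least 4.90-fold higher in blastocysts. Cdk6, the other partner of the D cyclins, is counted among the 7 higher (adjusted p = 0.0419) but was well above background in neither ooplast array, and its blastocyst level did not exceed the ooplast bound, so no rise was measured. Its fitted difference of 1.39 turned to -0.36 under normexp and to -0.92 with the mean of its probes, and was no longer called without either ooplast array (adjusted p = 0.183 without the young and 0.139 without the climacteric array).

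Other CDK inhibitors gave 1 higher, 1 lower and 2 not past the threshold of 4 tested. Cdkn2c (p18), an inhibitor of CDK4 and CDK6, rose by 3.43 and by 3.89 at another probe. Cdkn2d (p19) fell by 2.00 (adjusted p = 0.0145) with 5.78 in climacteric and 8.59 in young ooplasts, and without the young ooplast array the difference was -0.90 and no longer passed (adjusted p = 0.135). Cdkn1c (p57) stood at -0.87 (adjusted p = 0.0583) and Cdkn2b (p15) at 0.64 (adjusted p = 0.534). Cdkn2a was above background on no array.

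Among genes of the retinoblastoma and E2F family, targets of the cyclin D and E kinases, all 12 tested passed, 5 higher and 7 lower in blastocysts (median -1.92). Rb1, the retinoblastoma gene, fell by 5.38, E2f2 fell by 6.74 and E2f5 by 6.45, while E2f6 rose by 5.35 and E2f8 by 2.37. Of 33 S-phase and replication genes, 13 rose, 9 fell and 11 did not pass (median -0.14). Tyms, thymidylate synthase, rose by 6.44 and Pold1, the catalytic subunit of DNA polymerase delta, by 2.85, while Orc6 (Orc6l in the files) fell by 2.75 and Dbf4, the activator of the CDC7 kinase, fell by 2.09.

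Of 14 genes of CDK phosphorylation and cyclin or inhibitor turnover, 4 rose, 8 fell and 2 did not pass (median -1.08). Skp1a, a component of the SCF ubiquitin ligases, rose by 3.13 and Fbxo31 by 2.72, while Cdc25a, the phosphatase that activates CDK2, fell by 4.06 and Cul1, the SCF scaffold, fell by 3.58. Of 17 p53 genes other than Cdkn1a, 9 rose, 6 fell and 2 did not pass, with a median of 1.54. Phlda3 (6.91), Pmaip1 (4.14) and Ccng1, also in the list of cyclins, rose, with at least 387-fold at its brighter probe and a fitted log2 difference of 5.23 at the other, while Bbc3 (-3.77), Mdm4 (-3.12), Mdm2 (-1.83) and Trp53 itself (-1.16, and -4.25 at another probe) fell. Without the climacteric ooplast array the Trp53 difference was -0.96 and did not pass (adjusted p = 0.0756). In none of the 6 lists did a gene pass for age in blastocysts. Rb1, Cdk1, Cdk6, Trp53, Mdm2 and Ccng1 were named after their values were seen.

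**Figure D5:**
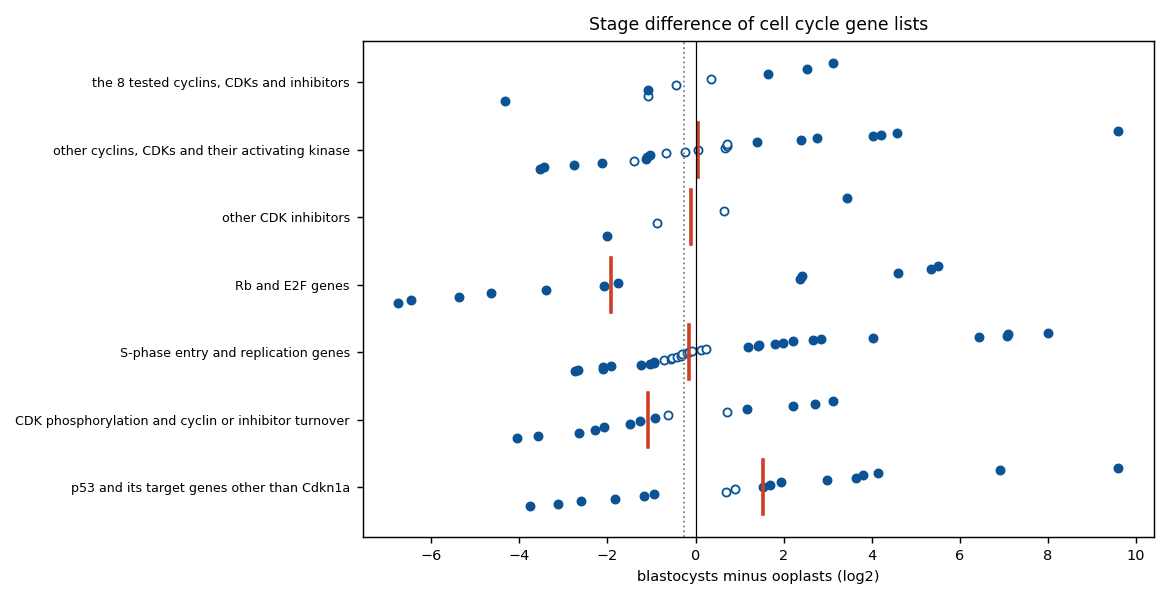
Difference between blastocysts and ooplasts on the log2 scale for each tested gene of the members (top row) and of 6 lists of cell cycle genes, filled where the adjusted p is under 0.05. Red bars are list medians, and the dotted line is the median over all genes, -0.25. The retinoblastoma and E2F list has a median of -1.92 and the p53 list one of 1.54.

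The 2 genes closest in profile over the 6 arrays were sought among 7947 genes above background on all of them. Predicted, clone and accession names were passed over. The pairs were Psmb10 and Gpi1 for Cdkn1a, Lyrm2 and Ubox5 for Ccne1, Atad3a and Nat13 for Ccna2, Dazap1 and Oc90 for Ccnd3, and Fshb and Trib3 for Cdkn1b. The root mean square distance between levels centred on each gene's mean was 0.06 to 0.13. This is a description over 6 arrays.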

How the data were processed

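Spot intensities were deposited by the authors as Agilent Feature Extraction output (version 9.5 per the submitters' processing notes). Per the file headers spatial detrending was on, the background correction setting was off, and probes are placed on mm8. The authors' deposited log2 table has rank correlation 1 with the scanner signals of each array and equal column medians of 6.25, and served as an alternative. Per the labels' protocols RNA was amplified and labelled with Cy3, with no DNase treatment.

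Each level is log2 processed signal less the 75th percentile of the array's non-control spots. Spots flagged as outliers were dropped, saturated spots kept (at most 13 per array). A gene was represented by its probe with the highest mean, a rule that favours bright probes, and tested where that probe exceeded background on all arrays of 1 or more of the groups compared. Tests used limma 3.58.1 in R 4.3.3 (lmFit, eBayes, two-sided, Benjamini-Hochberg, threshold 0.05), tested on simulated data first. The study's design text calls replicates biological, but no animals are named, and p-values then cover only the spread among these arrays. The number of arrays limits the precision.

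The 10 genes and the lists were chosen with earlier results of these data known. All members were named, and from each list up to 2 highest and 2 lowest past the threshold. The replicate numbers coincide with the slides. Gene names are those of the files.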

Additional observations from a re-analysis of the deposited data

How the results depend on the processing

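Cdkn1a, Cdk4, Ccne1 and Ccne2 kept their stage direction and stayed past the threshold in every alternative that tested them. Cdk4 and Ccne2 were not tested when probes had to be above background on all 6 arrays, which left 3 members past the threshold. Each Cdk4 call set blastocyst signals against ooplast signals at background and gives no measured size. For Ccne2, replicate 1 of the young blastocysts was at background. Cdkn1b lost its call with the mean of probes, without the climacteric ooplast array and in young arrays alone. Ccnd2 passed with scaling on detected probes (-1.28), with normexp (-1.08) and without replicate 1 of the young blastocysts (-1.35). Reversed stage values were 0.024 for Ccna2 (the authors' values), -0.36 (normexp) and -0.92 (mean of probes) for Cdk6, and -0.46 for Cdkn2b with slide as a block or the first slide alone. For age in blastocysts, values that changed sign were 0.011, 0.037 and 0.016 for Ccna2 and 0.074, 0.094 and 0.11 for Ccne1 under quantile normalization, scaling on detected probes and the authors' values, 0.14 for Ccne1 and -0.18 for Ccnd2 with the mean of probes, and 0.10 and 0.033 for Cdk4 with scaling on detected probes and normexp. The interaction of Ccnd3 became 0.0028 with normexp. The cause was not tested.

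Genes past the threshold for stage numbered 20040 without a filter (11604 with it), and those for the interaction 43 with quantile normalization, 0 with the authors' values and 83 with the mean of probes (133 otherwise). In ooplasts 1338 (normexp) and 4663 (no filter) genes were 2-fold apart against 2087, and 0 members with scaling on detected probes, normexp or the mean of probes. For the ooplasts, requiring probes above background on all arrays compared is the filter already used and was not run apart. Leaving out 1 array gave 9546 to 11241 genes and 4 to 6 members for stage, 0 for age in blastocysts, and 0 to 162 genes and 0 members for the interaction, 0 without either climacteric blastocyst array. Such values for age in blastocysts ran from -0.25 to 0.0073 for Ccna2, -0.21 to 0.99 for Ccnd2, -0.42 to 0.60 for Ccnd3, -0.28 to 0.16 for Ccne1 and -0.41 to 0.31 for Cdk4, and for the interaction from -0.77 to 0.44 for Ccnd2 and -0.56 to 0.46 for Ccnd3. With the replicate number as a block, 0 genes and 0 members passed for age in blastocysts. Same-numbered blastocyst arrays deviated together with a correlation of 0.21 over 14277 genes, but 2 pairs cannot establish a pairing. Scaling moved the stage median of all genes between -0.45 and -0.13, and the share of calls that were higher in blastocysts between 42.7% and 49.7%.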
